A study of Mus musculus with 13 samples.

Results

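The genes described here encode the machinery that carries proteins into mitochondria, in Sertoli cells enriched from adult mouse testis. They were taken from the table by name: every gene whose symbol starts with *Timm* or *Tomm* and a digit, together with *Samm50*, *Mtx1*, *Mtx2*, *Pmpca*, *Pmpcb*, *Grpel1*, *Grpel2*, *Chchd4*, *Gfer*, *Pam16* and *Romo1*. This gave 38 of the 27111 features with a gene name, and 36 of them had enough counts to be tested. The mice were wild-type C57Bl/6J males (Bl6 wt in the labels) and carried no transgene. The 7 MSUS males had been exposed as pups to MSUS, in which maternal separation is joined with stress of the mother, both at unpredictable times. They were taken from the mother for 3 h on each of the days 1 to 14 after birth, and the mother meanwhile either swam for 5 min in water of 18°C or was restrained for 20 min. The 6 control males were left undisturbed, and all 13 were sampled as adults. Cells were sorted by FACS as diploid, large and strongly stained with MitoTracker, a dye that accumulates in mitochondria, so both groups had been selected on a mitochondrial property before their RNA was measured. Each library was made from 5 ng of RNA. The question was whether transcripts of the import machinery differed between MSUS and control Sertoli cells.

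Nearly all mitochondrial proteins are encoded in the nucleus, made in the cytosol and imported. The TOM complex forms the entry pore of the outer membrane, and from there proteins are passed to the SAM complex for outer membrane barrels, to the oxidation relay and the small TIM chaperones of the intermembrane space, to TIM22 for carriers of the inner membrane, or to TIM23 and its motor for the matrix, where the processing peptidase MPP removes the targeting sequence. Sertoli cells nourish germ cells mainly through glycolysis and lactate export, and also oxidise fatty acids in their mitochondria.

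The sequences before the RefSeq start site of 5 genes are shown because letters known as binding motifs of regulators of nuclear-encoded mitochondrial genes occur in them. *Pmpcb* and *Chchd4* are the 2 genes with an unadjusted p under 0.05 between the groups, and *Tomm20*, *Tomm22* and *Tomm70a* encode the receptors of the TOM complex. The promoter of *Tomm20l*, a *Tomm20*-like gene grouped with the receptors below, held no such letters and is not shown. Capitals mark the letters CCGGAAG or their reverse complement CTTCCGG, the core bound by the ETS factor GABPA, in *Pmpcb*, *Tomm22* and *Tomm70a*. In *Chchd4* and *Tomm20* they mark the motif bound by NRF1, GCGCA, any base and GCGC, or its reverse complement, GCGC, any base and TGCGC. Each is written 5′ to 3′ on the strand of its gene from RefSeq (GRCm38.p6) and ends with the base just before the start site. The exception is *Chchd4*, for which the 123 bases nearest the start were left out. By the GENCODE annotation the last 19 bases shown for *Pmpcb*, 7 for *Tomm22* and 11 for *Tomm70a* already lie in the first exon, and these hold the marked core of *Pmpcb* and the second one of *Tomm70a*.
Pmpcb, chr5:21736910-21737159, plus strand: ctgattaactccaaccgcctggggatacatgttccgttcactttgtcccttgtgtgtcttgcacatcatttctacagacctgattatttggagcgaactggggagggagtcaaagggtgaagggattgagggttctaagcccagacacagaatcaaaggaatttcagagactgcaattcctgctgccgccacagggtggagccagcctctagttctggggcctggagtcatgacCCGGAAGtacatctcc
Chchd4, chr6:91473547-91473673, minus strand: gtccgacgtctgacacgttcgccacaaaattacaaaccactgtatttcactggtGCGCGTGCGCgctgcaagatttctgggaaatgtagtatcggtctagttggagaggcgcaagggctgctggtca
Tomm20, chr8:126945922-126946171, minus strand: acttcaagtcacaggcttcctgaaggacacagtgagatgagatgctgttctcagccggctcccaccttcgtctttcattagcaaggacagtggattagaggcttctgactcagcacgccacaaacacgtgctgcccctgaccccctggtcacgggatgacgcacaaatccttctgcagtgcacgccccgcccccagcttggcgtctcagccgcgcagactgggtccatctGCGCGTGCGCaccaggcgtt
Tomm22, chr15:79670618-79670867, plus strand: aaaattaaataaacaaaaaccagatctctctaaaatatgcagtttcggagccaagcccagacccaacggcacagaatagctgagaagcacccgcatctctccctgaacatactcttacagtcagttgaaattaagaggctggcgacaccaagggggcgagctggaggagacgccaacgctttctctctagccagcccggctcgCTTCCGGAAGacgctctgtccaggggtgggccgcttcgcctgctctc
Tomm70a, chr16:57121464-57121713, plus strand: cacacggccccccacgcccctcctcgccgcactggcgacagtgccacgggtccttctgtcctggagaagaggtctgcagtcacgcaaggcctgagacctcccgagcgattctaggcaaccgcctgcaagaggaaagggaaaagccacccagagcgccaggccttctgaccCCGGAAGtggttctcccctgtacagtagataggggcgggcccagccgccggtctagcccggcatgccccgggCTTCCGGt

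Of the 38 genes, 33 had a RefSeq promoter, here the 250 bases before and 50 bases after the start site. The GABPA core was found on either strand in 15 of the 33 (45.5%), against 18.8% of the 10830 tested genes with a promoter and 9.93% of all 27025 promoters. The NRF1 letters were found in 5 (15.2%), against 1189 of the 10830 tested genes and 5.19% of all promoters. AAGATGGC, bound by YY1, was found in the promoters of *Mtx1* and *Timm50* (6.06%, against 5.00% of tested genes). TGACGTCA, the full cAMP response element, was in 0 of the 33 and in 3.52% of tested genes. In *Tomm22* the core stood on both strands in overlapping letters and once more after the start site, and in *Tomm70a* it occurred once on each strand. The median GC content of the 33 promoters was 59.7%, against 60.0% in tested genes and 52.8% in all promoters. Such matches describe letters and do not show binding.

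Total counts lay between 13087203 and 18649945 in control samples and between 12701776 and 15693938 in MSUS samples, and the import genes took 0.160% to 0.181% of the named counts of a control sample and 0.153% to 0.170% of those of an MSUS sample. Levels are given as log2 CPM (log2 of TMM-normalized CPM, that is counts scaled to the size of the library, with 2 as prior count). The 5 Sertoli cell markers (*Amhr2*, *Clu*, *Ctsl*, *Rhox5*, *Sox9*) averaged 10.18 ± 0.10 (SD, n = 6) in controls and 10.15 ± 0.09 (n = 7) in MSUS samples, a difference of -0.03 (exact permutation test, two-sided, p = 0.524). Among the marker lists of 8 other testicular cell types, elongated spermatids stood highest with 7.90 ± 0.23 and 8.09 ± 0.46 (exact p = 0.377), while the 4 macrophage markers averaged -1.83 and -1.77. Only the 4 endothelial markers had an exact p under 0.05, with a mean of 3.09 in controls and 3.33 in MSUS samples (ranges 2.90 to 3.37 and 3.15 to 3.58, p = 0.0227, adjusted over the 9 lists 0.205). Every marker had counts in at least 1 sample. Enough counts to be tested singly were found for 0 of the 4 macrophage, 2 of the 4 spermatogonia and 3 of the 4 peritubular myoid markers, and for all markers of the other lists. Apart from the elongated spermatid markers, the part of the markers in the results was not tested. In such bulk samples, fewer cells of a type and less RNA per cell cannot be told apart.

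In the MSUS samples *Pmpcb*, the catalytic subunit of the peptidase that cuts off targeting sequences, and *Chchd4*, the oxidoreductase of the intermembrane space, had lower levels than in controls, with unadjusted p under 0.05. They were 2 of the 36 tested import genes (5.56%), against 5.42% of all 14421 genes tested, and so the share was close to the background. Both were lower in MSUS, as were 2.4% of all genes at this threshold, while 0 import genes and 3.02% of all genes were higher. After Benjamini-Hochberg adjustment over all genes tested, limma called 0 genes (0%), and the smallest adjusted p of any gene was 0.878. In edgeR's quasi-likelihood test and in DESeq2, 3 import genes each (8.33%) had an unadjusted p under 0.05, against 5.5% and 5.79% of all genes tested, and 0 had an adjusted one.

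The differences were small and mostly negative. Of the 36 import genes, 27 (75%) had a log2 fold change below 0, against 50.5% of all genes tested. Their median log2 fold change was -0.05, with quartiles of -0.16 and -0.004, while the median of all genes tested was -0.002. The range ran from -0.32 in *Tomm20l* to 0.26 in *Timm8a2*, both scarce transcripts with wide intervals. No import gene had all MSUS samples below or all above the controls, an arrangement seen in 0.0555% and 0.0763% of the genes tested. Between control mice the import genes had a median SD of 0.15 log2 CPM (0.07 to 0.87), against a median of 0.20 over all genes tested. These lists were not matched for level, on which the SD can depend. The sign of the median log2 fold change of the import genes changed in the fit with the samples' *Malat1* level as covariate, as given with the values per sample.

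**Figure D1:**
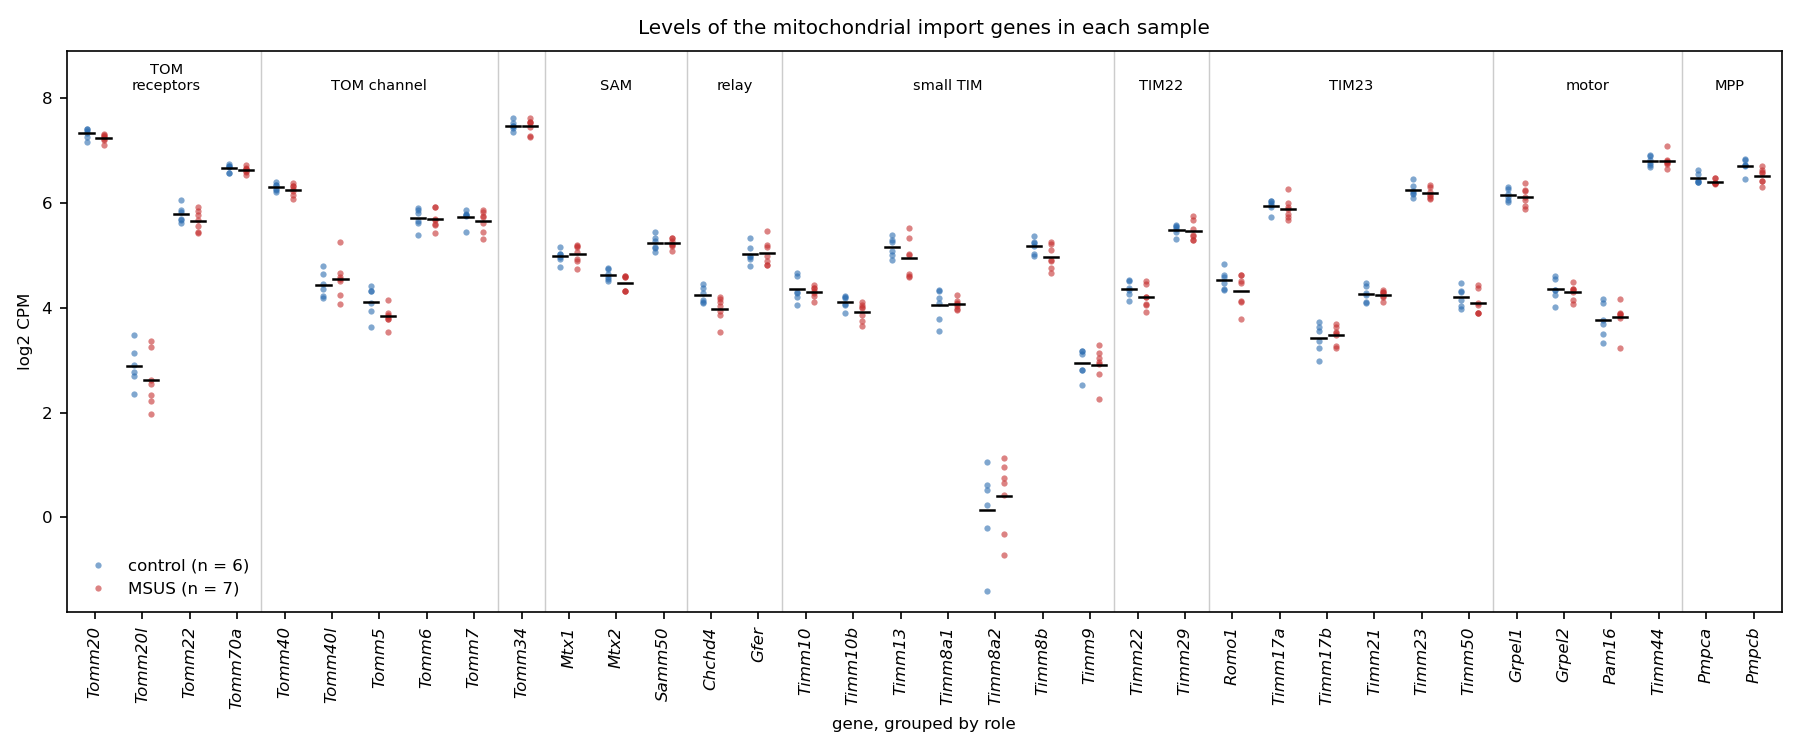
Log2 CPM of the 36 tested import genes in each sample (y axis), with genes grouped by role along the x axis, blue points for the 6 control and red for the 7 MSUS samples, and black bars for group means. The strip without a heading holds *Tomm34*, and in every gene the red and blue points overlap, with *Tomm34* and *Tomm20* above 7 and *Timm8a2* near 0.

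The receptors of the TOM complex recognise precursors at the mitochondrial surface. *Tomm20* (chr8:126930667-126945844 of GRCm38, minus strand), which binds targeting sequences, had 7.16, 7.36 and 7.42 log2 CPM as lowest, median and highest control value and 7.12, 7.27 and 7.31 in MSUS samples. All 7 MSUS samples lay below the control mean, while 4 of the 6 controls lay above every MSUS sample. The log2 fold change was -0.09 (SE 0.06, limma adjusted p = 0.878), so the groups did not differ beyond the spread between mice at this threshold. Per kilobase of transcript *Tomm20* was the most abundant receptor, with 5.91 log2 CPM per kb in controls and a higher value than *Tomm22* (5.56), the next, in 6 of 6 control samples. *Tomm20l* (chr12:71111428-71123221, plus strand), a *Tomm20*-like gene, had 2.36, 2.85 and 3.47 log2 CPM in controls and 1.98, 2.56 and 3.36 in MSUS samples. The groups overlapped, with 3 MSUS samples below the lowest control, and its log2 fold change was -0.32 (SE 0.23, limma adjusted p = 0.880). It shares at least 49 exonic bases with *Timm9* on the opposite strand. *Tomm22*, the central receptor that also holds the pore together, and *Tomm70a*, the receptor for carrier proteins, had log2 fold changes of -0.12 (SE 0.09) and -0.03 (SE 0.05). All 4 receptor genes thus had negative values, and 0 had an unadjusted p under 0.05.

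The pore itself is formed by *Tomm40*, with the small subunits *Tomm5*, *Tomm6* and *Tomm7* around it. *Tomm40* (chr7:19701313-19715438, minus strand) had 6.20, 6.30 and 6.41 log2 CPM in controls and 6.09, 6.26 and 6.38 in MSUS samples. Its paralog *Tomm40l* (chr1:171216011-171222514, minus strand) had 4.18, 4.41 and 4.80 in controls and 4.08, 4.54 and 5.27 in MSUS samples. In both genes the groups overlapped. *Tomm40* had a log2 fold change of -0.05 (SE 0.06, limma adjusted p = 0.928). *Tomm40l* had 0.11 (SE 0.16, limma adjusted p = 0.937), and it shares at least 1072 exonic bases with *Nr1i3* on the opposite strand. *Tomm6* (chr17:47686646-47688386, minus strand) was the most abundant of the pore genes per length, with 6.29 log2 CPM per kb in controls. It shares exonic bases with *Gm21981* on the same strand and with *Tomm6os* and *Usp49* on the opposite strand. Its estimates were not whole in 8 samples, so this first place is uncertain. *Tomm6* had 5.39, 5.73 and 5.91 log2 CPM in controls and 5.42, 5.68 and 5.92 in MSUS samples, nearly the same range. Its log2 fold change was -0.02 (SE 0.10). *Tomm5* came closest to the threshold, with a log2 fold change of -0.27 (SE 0.14), a limma p of 0.0634 and 6 of 7 MSUS values under the mean of the controls. Its unadjusted p was under 0.05 in edgeR (-0.30, p of 0.0361) and in DESeq2 (-0.29, p of 0.0354), and its adjusted p was 0.878 in limma. *Tomm7*, which modulates assembly of the pore, had -0.09 (SE 0.10).

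*Tomm34*, a cytosolic co-chaperone that binds HSP70 and HSP90 and holds precursors before import, was the most abundant import gene per length, with 6.40 log2 CPM per kb in controls. In log2 CPM its lowest, median and highest values were 7.36, 7.47 and 7.62 in controls and 7.27, 7.53 and 7.63 in MSUS samples. The groups overlapped, with 2 MSUS samples below and 1 above every control, and with a log2 fold change of -0.01 and a 95% confidence interval from -0.15 to 0.13. *Timm23*, next in order, was also at 6.40 log2 CPM per kb, and *Tomm34* exceeded it in 3 of 6 control samples, so the first place was not settled.

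In the outer membrane, the SAM complex inserts barrel proteins such as *Tomm40* itself. Its core *Samm50* had a log2 fold change of 0.003 (SE 0.08). The metaxins sit on the cytosolic face of the complex. *Mtx1* (chr3:89209081-89227088, minus strand), with 4.37 log2 CPM per kb the most abundant of these genes per length in controls, had 4.79, 5.00 and 5.17 log2 CPM in controls and 4.74, 5.07 and 5.20 in MSUS samples. *Mtx2* (chr2:74825803-74878431, plus strand) had 4.52, 4.62 and 4.77 in controls and 4.32, 4.58 and 4.61 in MSUS samples. *Mtx2* lay below the control mean in all 7 MSUS samples and *Mtx1* in 3 of 7, and neither pair of groups was separate. The log2 fold changes were 0.03 (SE 0.09, limma adjusted p = 0.972) for *Mtx1* and -0.15 (SE 0.09, limma adjusted p = 0.878) for *Mtx2*.

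The intermembrane space holds the oxidation relay, which folds small cysteine-rich proteins, the small TIM subunits among them. *Chchd4* (chr6:91462172-91473546, minus strand), whose product introduces the disulfide bonds, had 4.09, 4.22 and 4.45 log2 CPM as lowest, median and highest value in controls and 3.53, 4.03 and 4.21 in MSUS samples. All 7 MSUS samples lay below the control mean of 4.25 ± 0.15 (SD, n = 6), and 3 of the 6 controls lay above every MSUS sample, whose mean was 3.98 ± 0.23 (SD, n = 7). The log2 fold change was -0.26 (SE 0.12, 95% confidence interval -0.51 to -0.02), a change of -16.8%, with a limma p of 0.0344 and an adjusted p of 0.878. An exact permutation test of the group means, two-sided, gave p = 0.0286. Its estimates were whole counts from 126 to 294 in every sample. Leaving out 1 sample at a time, the p stayed under 0.05 in 7 of 13 fits, and it was 0.0902 without MSUS 5, with a log2 fold change of -0.19. It was also lost with *Malat1* (-0.17, p of 0.241), the mitochondrially encoded share (-0.18, p of 0.160) or elongated spermatid markers (-0.25, p of 0.0518) as covariate. *Gfer* (chr17:24693187-24696156, minus strand) encodes the sulfhydryl oxidase that returns *Chchd4* to its oxidised state, and with 4.56 log2 CPM per kb it was the more abundant of the relay genes per length in controls. Its level was 4.80, 4.99 and 5.33 log2 CPM in controls and 4.82, 4.99 and 5.47 in MSUS samples. The medians were the same, and the log2 fold change was 0.02 (SE 0.11, limma adjusted p = 0.983).

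The small TIM proteins chaperone hydrophobic precursors across the intermembrane space, *Timm9* with *Timm10*, and *Timm8a1* or *Timm8b* with *Timm13*. *Timm8b* (chr9:50603910-50605320, plus strand), the most abundant of them per length with 6.13 log2 CPM per kb in controls, had 5.00, 5.21 and 5.36 log2 CPM in controls and 4.68, 4.91 and 5.26 in MSUS samples. Its log2 fold change of -0.20 (SE 0.10, limma adjusted p = 0.878) did not pass the threshold, and 5 of the 7 MSUS values were under the mean of the controls. *Timm8a1* (chrX:134537256-134541865, minus strand), the ortholog of the human deafness-dystonia gene, had 3.56, 4.14 and 4.33 in controls and 3.96, 4.07 and 4.25 in MSUS samples. *Timm8a2* (chr14:122034674-122038420, plus strand) was the scarcest import gene tested, with 2 to 26 counts per sample and -1.41, 0.38 and 1.06 log2 CPM in controls and -0.72, 0.65 and 1.14 in MSUS samples. For both paralogs the groups overlapped, with log2 fold changes of 0.05 (SE 0.13) and 0.26 (95% confidence interval -0.71 to 1.23). *Timm8b* exceeded *Timm8a1* per length by far (6.13 against 3.54 log2 CPM per kb in controls), and *Timm8a2* was lower still with 0.27. *Timm10b* and *Timm13* had log2 fold changes of -0.18 (SE 0.10) and -0.20 (SE 0.14), while *Timm9* and *Timm10* had -0.04 and -0.05. The row named *Timm10b.1* (0 to 17 counts) and *Tomm6os* (0 to 16 counts), an antisense transcript of *Tomm6* that is no import gene itself, had too few counts to be tested.

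TIM22 inserts carriers into the inner membrane. *Timm29* (chr9:21592722-21595970, plus strand), a subunit that stabilises the complex, had 5.32, 5.52 and 5.58 log2 CPM in controls and 5.30, 5.39 and 5.76 in MSUS samples. The MSUS values enclosed the control values, with a log2 fold change of -0.02 (SE 0.09), and per length *Timm29* and the channel gene *Timm22* had 3.82 and 3.53 log2 CPM per kb in controls. *Timm22* had a log2 fold change of -0.16 (SE 0.11, limma adjusted p = 0.878).

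The channel of TIM23 is made of *Timm23* and *Timm17*, with *Timm50* as receptor and *Timm21* and *Romo1* as further subunits. *Timm23* (chr14:32180162-32201898, minus strand) led these genes per length with 6.40 log2 CPM per kb in controls, and had 6.10, 6.21 and 6.45 log2 CPM in controls and 6.08, 6.16 and 6.35 in MSUS samples. The groups overlapped, with a log2 fold change of -0.05 (SE 0.07, limma adjusted p = 0.940). Its estimates were not whole in any sample but added up to whole numbers, within 0.02, with those of LOC115488402, so reads had been divided between these features. RefSeq lists the latter as a snoRNA of 197 bases (chr14:32191854-32192050), which lie within *Timm23*. Of 8 *Timm23* transcripts in GENCODE, 1, a processed transcript, has an exon over 104 of these bases. LOC115488402 held 61.3% to 68.5% of the counts of the pair in controls and 57.8% to 73.7% in MSUS samples. Summed, the pair had a log2 fold change of -0.04 (SE 0.12, limma adjusted p = 0.972), and a control level of 7.82 ± 0.20 log2 CPM (SD, n = 6) against 6.24 ± 0.13 for *Timm23* alone. The level of *Timm23* and its place in the order per length thus depend on this division. The estimates of *Tomm20* and *Timm17b* were also not whole in any sample, with no partner found, and 15 of the 38 genes had an estimate that was not whole in at least 1 sample.

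*Timm17a* (chr1:135295213-135313778, minus strand) had 5.74, 5.98 and 6.05 log2 CPM in controls and 5.67, 5.89 and 6.26 in MSUS samples. *Timm17b* (chrX:7899357-7908351, plus strand), the alternative subunit, had 2.98, 3.46 and 3.73 in controls and 3.23, 3.51 and 3.70 in MSUS samples. The log2 fold changes were -0.05 (SE 0.09) and 0.08 (SE 0.14), both within the spread between mice. Per length *Timm17a* lay above *Timm17b* in controls (3.09 against 2.17 log2 CPM per kb). *Romo1*, *Timm50* and *Timm21* had log2 fold changes of -0.21 (SE 0.14), -0.11 (SE 0.12) and -0.006 (SE 0.09), with 0 under an unadjusted p of 0.05.

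The import motor pulls chains through TIM23 by the matrix HSP70. *Timm44* (chr8:4259731-4275913, minus strand), which tethers the HSP70 to the channel, led these genes per length with 5.96 log2 CPM per kb in controls, and had 6.69, 6.79 and 6.93 log2 CPM in controls and 6.65, 6.79 and 7.09 in MSUS samples. *Grpel1* (chr5:36464998-36474080, plus strand) and *Grpel2* encode the nucleotide exchange factors of that HSP70. *Grpel1* had 6.02, 6.14 and 6.30 in controls and 5.88, 6.11 and 6.38 in MSUS samples, and *Grpel2* had 4.02, 4.35 and 4.60 in controls and 4.08, 4.35 and 4.50 in MSUS samples. In all 3 genes the groups overlapped widely. The log2 fold changes were 0.0007 (SE 0.07) for *Timm44*, -0.03 (SE 0.08) for *Grpel1* and -0.04 (SE 0.11) for *Grpel2*, while *Pam16*, a regulator of the motor, had 0.07 (SE 0.16). Per length *Grpel1* stood at 4.34 and *Grpel2* at 2.35 log2 CPM per kb in controls.

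MPP, the matrix processing peptidase, consists of *Pmpca*, which binds the precursor, and *Pmpcb*, which carries the catalytic site. *Pmpcb* (chr5:21737141-21757152, plus strand) had 6.46, 6.73 and 6.84 log2 CPM as lowest, median and highest value in controls and 6.31, 6.58 and 6.71 in MSUS samples. Every MSUS sample lay below the control mean of 6.72 ± 0.14 (SD, n = 6), 5 of the 6 controls lay above every MSUS sample (mean 6.52 ± 0.14, SD, n = 7), and the control with the lowest value lay within the MSUS range. The log2 fold change was -0.19 (SE 0.08, 95% confidence interval -0.35 to -0.03), a change of -12.5%, with a limma p of 0.0225 and an adjusted p of 0.878. The exact permutation test of the group means, two-sided, gave p = 0.0338. Its estimates were whole counts from 939 to 1472 in every sample, no other gene overlaps its exons, and the p stayed under 0.05 in 10 of 13 fits that left out 1 sample. It was 0.0579 without MSUS 26, with a log2 fold change of -0.15. The call was also lost with *Malat1* (-0.05, p of 0.514) or the mitochondrially encoded share (-0.12, p of 0.141) as covariate. *Pmpca* (chr2:26389339-26397122, plus strand) had 6.40, 6.43 and 6.63 in controls and 6.37, 6.39 and 6.48 in MSUS samples. These groups overlapped, with a log2 fold change of -0.06 (SE 0.06, limma adjusted p = 0.899). Per length *Pmpcb* led with 6.02 log2 CPM per kb against 5.22 for *Pmpca*, which shares at least 874 exonic bases with *Inpp5e* on the opposite strand.

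**Figure D2:**
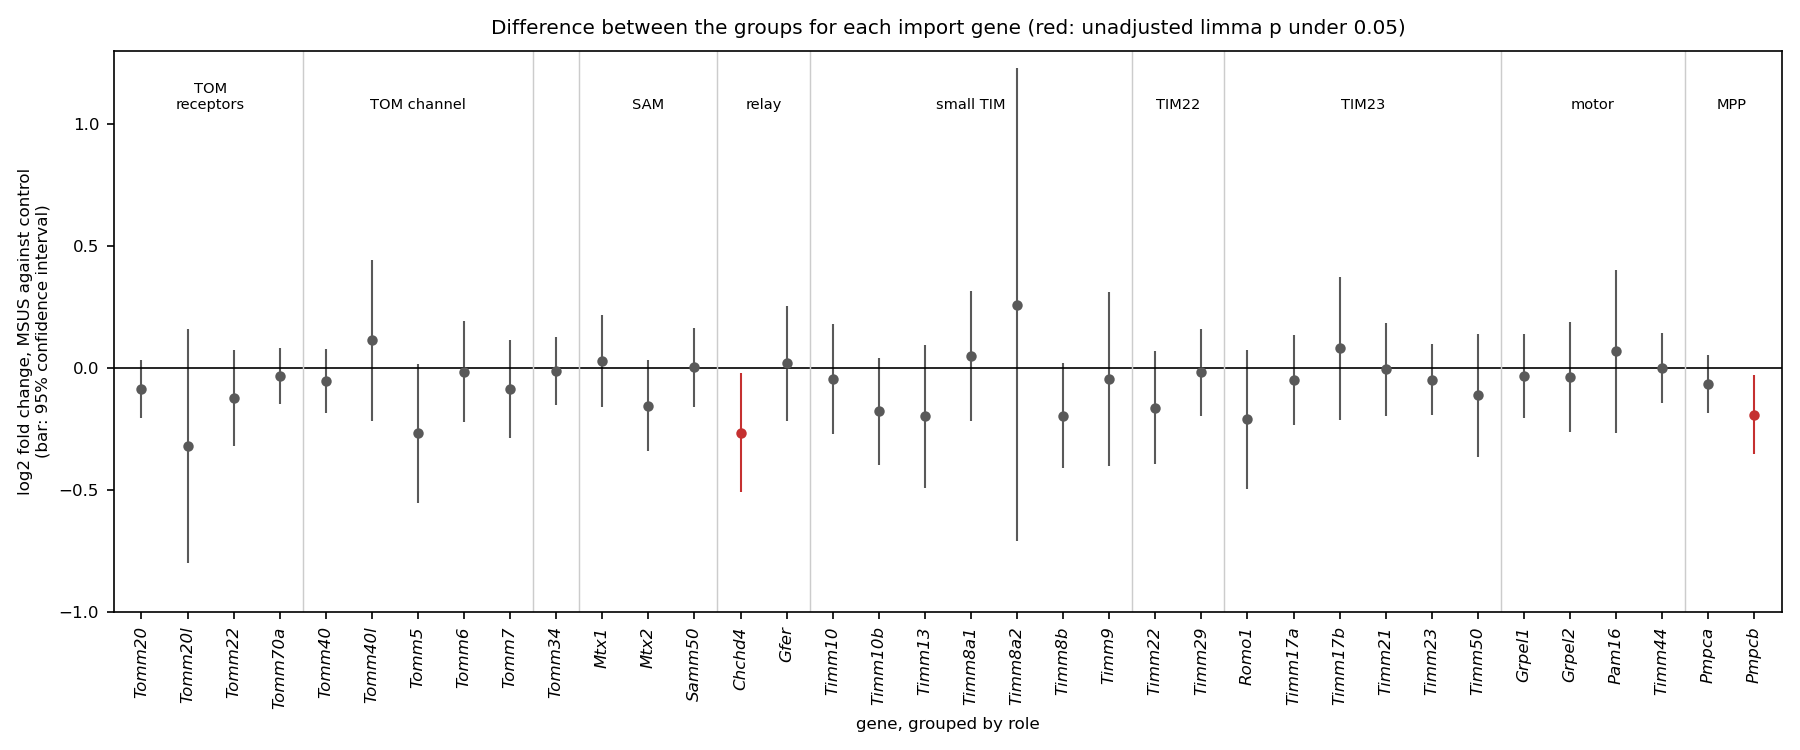
Log2 fold change of each tested import gene, MSUS against control (y axis, points), with 95% confidence intervals (bars) and genes grouped by role along the x axis. The intervals of *Chchd4* and *Pmpcb* (red) end below 0, at -0.02 and -0.03, the others cross it, and that of *Timm8a2* is the widest.

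Other genes of import and folding gave like values. In a list of 23 (matrix chaperones such as *Hspa9* and *Hspd1*, presequence peptidases, the insertase *Oxa1l*, cytosolic chaperones and others), all were tested, 18 had a log2 fold change below 0 and the median was -0.05. Only *Timmdc1*, an assembly factor of respiratory complex I with a TIM17-like fold, had an unadjusted p under 0.05, 1 of 23 (4.35%) against 5.42% of all genes tested. The count was 0 without control 9, 12, 14 or 22 or MSUS 6, 13 or 26. In these fits 3.78% to 7.15% of all genes tested had an unadjusted p under 0.05. *Timmdc1* had 4.75, 5.04 and 5.15 log2 CPM in controls and 4.66, 4.75 and 4.99 in MSUS samples. All 7 MSUS samples lay below its control mean, and its log2 fold change was -0.20 (SE 0.09), with a limma p of 0.0368 and an adjusted p of 0.878. Among proteins that depend on import, 64 of 78 mitochondrial ribosomal protein genes were below 0 with a median of -0.09, and 73 of 81 tested nuclear ETC subunit genes with the same median of -0.09. The median of the import genes was closer to 0 than these, and the difference between the lists was not tested.

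The spread among samples of a group was larger than the difference between the groups. The deviation of each tested import gene from its mean over all 13 samples was averaged per sample. It ran from -0.07 in control 10 to 0.15 in control 24 (mean 0.04 ± 0.09, SD, n = 6) and from -0.15 in MSUS 26 to 0.09 in MSUS 23 (mean -0.03 ± 0.09, SD, n = 7). Control 24 had the highest level of 11 of the 36 genes, and MSUS 26 the lowest level of 12. The level of *Malat1*, a nuclear long non-coding RNA, was lowest in control 24 (9.15 log2 CPM) and highest in MSUS 5 and MSUS 26 (11.28 and 11.07). The highest control stood at 10.68 and the lowest MSUS sample at 10.16, so the groups overlapped. Mitochondrially encoded genes took 1.26% of the named counts in control 24, up to 2.48% in other controls, and 1.80% to 3.16% in MSUS samples, with the 3.16% in MSUS 5.

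**Figure D3:**
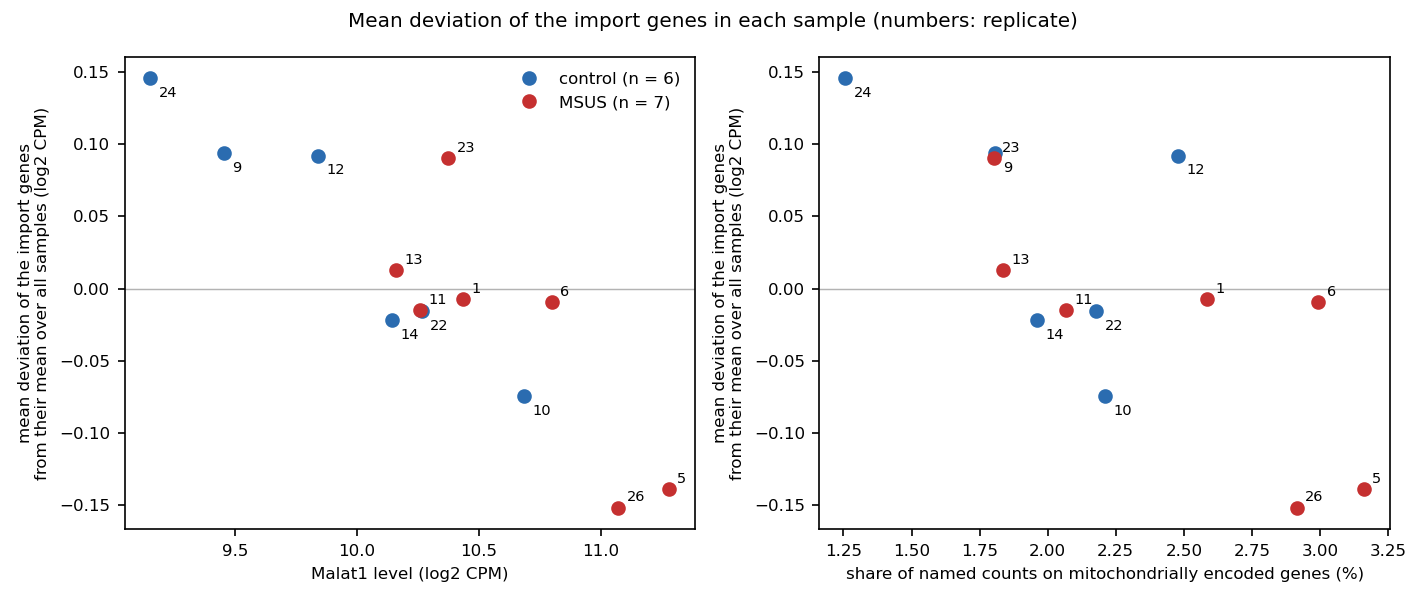
Mean deviation of the 36 import genes from their mean over all samples (y axis, log2 CPM) against the *Malat1* level in log2 CPM (left) and the percentage of named counts on mitochondrially encoded genes (right), 1 point per sample with its replicate number. Control 24 stands at the upper left of both panels with 0.15, and MSUS 5 and MSUS 26 at the lower right with -0.14 and -0.15.

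With *Malat1* as covariate in the limma fit, the median log2 fold change of the import genes was 0.02 in place of -0.05, with 15 genes below 0 and 21 above. *Pam16* was then the only import gene with an unadjusted limma p under 0.05, with 0.36 (p of 0.0348). With the mitochondrially encoded share as covariate the median was -0.02, with 20 genes below 0, and 0 genes had a p under 0.05. In these fits 2.78% and 2.77% of all genes tested had one. With the level of elongated spermatid markers as covariate the median was -0.07, and *Pmpcb*, *Timm8b*, *Romo1* and *Tomm5* were the 4 genes with a limma p under 0.05, all lower, against 8.36% of all genes tested. Control 24 and control 10 also decided the count: it was 0 without the former and 6 without the latter, where 4.4% and 7.7% of all genes tested had a p under 0.05. The *Malat1* level and the groups overlap but are not balanced, and how much of the difference belongs to each cannot be told apart.

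**Figure D4:**
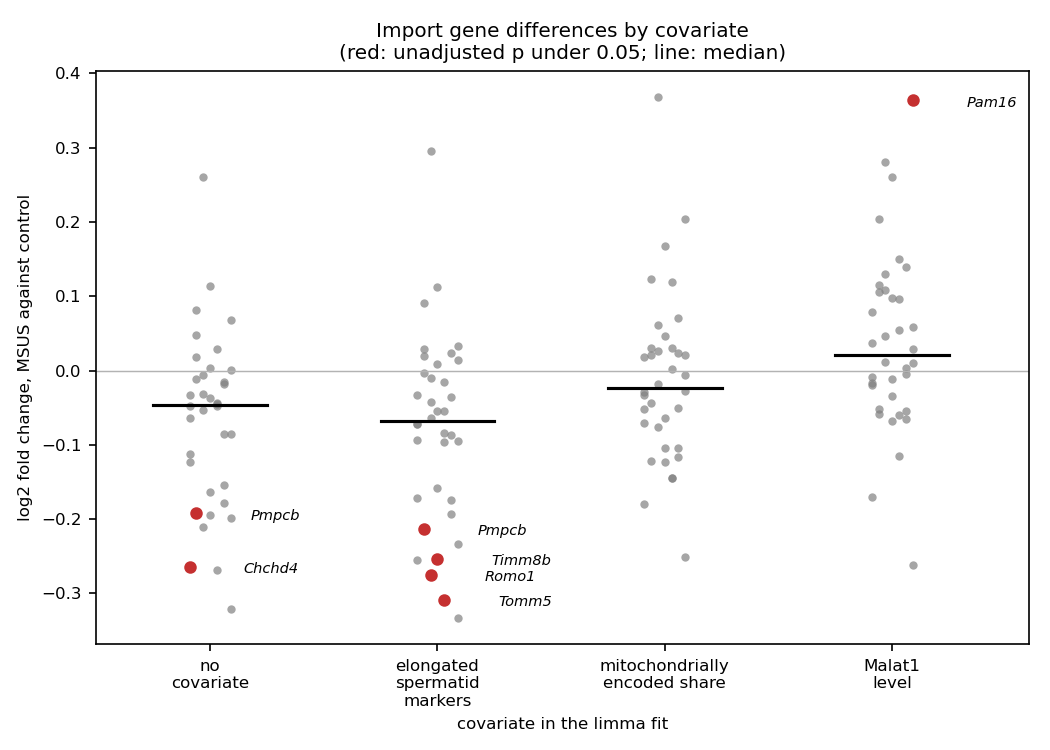
Log2 fold change of the 36 import genes, MSUS against control (y axis), in 4 limma fits along the x axis, each point a gene, the black line the median and red the genes with an unadjusted p under 0.05. The median lies at -0.05 without covariate, -0.07 with elongated spermatid markers, -0.02 with the mitochondrially encoded share and 0.02 with *Malat1*.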

How the data were processed

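RNA sequencing of Sertoli cells enriched by FACS covered 6 control and 7 MSUS mice. The authors trimmed reads (Trim Galore 0.6.5), assigned them with Salmon 1.1.0 to GENCODE vM23 transcripts and deposited estimated counts per gene, not normalized. How transcripts were summed and whether strand was used is not given in the sources used here, although the kit keeps strand. Of 54281 features, 27170 had no gene name, held 20.7% to 26.7% of a sample's counts and were left out. 0 columns matched no sample. Estimates were rounded to whole numbers.

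Following the study's methods, counts were scaled by TMM in edgeR 4.0.16 under R 4.3.3 and tested with voom and limma 3.58.1. Genes were kept by filterByExpr, and p-values were adjusted by Benjamini-Hochberg over all genes tested. The study's methods do not name this filter or an adjustment of gene p-values. The alternatives were the quasi-likelihood test of edgeR, DESeq2 1.42.0, RLE size factors, library size alone, other count filters, sample quality weights, features with no name kept, 3 covariates and leaving out each sample. Adding counts of LOC115488402 to *Timm23* was chosen after seeing the data. Marker lists and each tested import gene were also compared by an exact permutation test over the 1716 splits, which cannot give a two-sided p below 0.000583. Among single genes its p is printed only for *Pmpcb* and *Chchd4*. These had been picked by their limma p on the same values, so the exact p is no independent check. In none of the 78 pairs of samples did the counts agree within sampling noise, so no sample was taken for a duplicate. Tested import genes had 2 to 2698 counts per sample.

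The members and lists were chosen with earlier results of these data known. Values per group are given for genes with an unadjusted p under 0.05, for the most abundant gene per length of each role in controls and for paralogs. *Tomm5*, *Pam16* and other import genes are summarised. Coordinates, lengths (mean over basic transcripts) and overlaps come from GENCODE vM21 of GRCm38, which matched 37 of the 38 genes. Of these, 17 share exonic bases with another gene, so their counts may be uncertain. Overlap and divided reads did not always go together. *Tomm40l*, with the longest overlap, had whole estimates in every sample, while those of *Timm17b* were not whole in any. Levels per length divide CPM by that length. Promoters and the place of LOC115488402 are from RefSeq (GRCm38.p6). Litter, cage and the second cohort were not analysed here.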

Additional observations from a re-analysis of the deposited data

Results flagged for a closer look

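In each group the highest and the lowest sample of each tested import gene were compared with the nearest other sample by Dixon's criterion. Of 72 groups of values 4 passed it, where chance alone gives 3.6 (about 1 in 20). *Timm44* was 7.09 log2 CPM in MSUS 23, above the next sample at 6.81. *Pam16* was 3.24 in MSUS 26, below the next at 3.81. In control 10, *Tomm7* was 5.45, below the next control at 5.75, and *Pmpcb* was 6.46, below the next at 6.72. Without control 10 the log2 fold change of *Pmpcb* was -0.25 (limma p of 0.00301) in place of -0.19. Control 10 had the largest total count (18649945) and the highest *Malat1* level among the controls (10.68 log2 CPM), and their part in these values was not tested.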

How the results depend on the processing

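No paired analysis was possible because the groups share no replicate number. The pseudogene alternative was not run, since 0 pseudogene rows are named after an import gene. No import gene had an adjusted p under 0.05 under any of the 25 alternatives. Over all genes, 781 had an unadjusted p under 0.05, and this count was 1182 with no filter on low counts, 1205, 401 and 399 with elongated spermatid markers, *Malat1* and the mitochondrially encoded share as covariate. For the import genes (2) it was 4 with library size alone (11.11%, against 5.49% of all genes tested). With the same covariates it was 4, 1 and 0, against 8.36%, 2.78% and 2.77% of all genes tested. For the 23 related genes (1) it was 2 with no filter and 3 with sample quality weights. In these 2 fits 4.99% and 7.25% of all genes tested had an unadjusted p under 0.05. Leaving out 1 sample gave 0 to 6 import genes and 0 to 3 related genes. The import count was 0 without control 24, 4 (11.11%) without MSUS 23 and 6 (16.67%) without control 10. In these fits 4.4%, 6.1% and 7.7% of all genes tested had an unadjusted p under 0.05. The import count was 1 (2.78%) without control 12, control 14, MSUS 5, MSUS 11 or MSUS 26. The shares of all genes tested were then 3.99%, 4.69%, 3.74%, 7.35% and 5.02%, so the background moved as well. The median log2 fold change of the import genes reversed only with *Malat1* as covariate, to 0.020, and lay from -0.064 to -0.032 with 1 sample left out.

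Single genes changed sign under some alternatives, among them *Romo1* (-0.21), *Timm13* (-0.20), *Tomm22* (-0.12) and *Timm50* (-0.11) with *Malat1* as covariate. With elongated spermatid markers as covariate the log2 fold changes that reversed were -0.0030 for *Gfer*, -0.015 for *Mtx1*, 0.024 for *Timm29* and 0.029 for *Tomm34*. With *Malat1* they were 0.11 for *Grpel1*, 0.047 for *Romo1*, 0.096 for *Timm10*, 0.058 for *Timm13*, 0.13 for *Timm21*, 0.055 for *Timm23*, 0.0038 for *Timm29*, 0.037 for *Timm50*, 0.079 for *Tomm22*, 0.012 for *Tomm40*, 0.14 for *Tomm6* and 0.0095 for *Tomm7*. With the mitochondrially encoded share they were 0.026 for *Grpel1*, 0.0015 for *Timm10*, 0.062 for *Timm21*, 0.030 for *Timm23*, 0.024 for *Timm29*, 0.019 for *Tomm22* and 0.071 for *Tomm6*. *Samm50* was -0.0071 in edgeR, -0.00087 in DESeq2, -0.016 with library size alone, -0.0031 with no filter, -0.026 with quality weights and -0.0036 with unnamed features kept. *Timm44* was -0.014, -0.0074, -0.015 and -0.0072 in the last 4 of these. With 1 sample left out, the ranges across 0 were -0.051 to 0.082 for *Gfer*, -0.076 to 0.016 for *Grpel1*, -0.11 to 0.0072 for *Grpel2*, -0.0059 to 0.084 for *Mtx1*, -0.033 to 0.18 for *Pam16*, -0.035 to 0.041 for *Samm50*, -0.11 to 0.022 for *Timm10*, -0.016 to 0.15 for *Timm17b*, -0.045 to 0.038 for *Timm21*, -0.063 to 0.014 for *Timm29*, -0.044 to 0.029 for *Timm44*, -0.057 to 0.10 for *Timm8a1*, -0.071 to 0.49 for *Timm8a2*, -0.12 to 0.051 for *Timm9*, -0.034 to 0.021 for *Tomm34*, -0.011 to 0.19 for *Tomm40l* and -0.086 to 0.038 for *Tomm6*. The marker differences ranged from -0.073 to 0.29 for Leydig cells and from -0.094 to 0.18 for macrophages. The causes were not tested.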
